A study of Rattus norvegicus with 12 samples.

Results

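The genes described here are 8 that decide how a cell reads glucocorticoids. They are the 2 corticosteroid receptor genes Nr3c1 and Nr3c2, the activating enzyme gene Hsd11b1, the co-chaperone genes Fkbp4 and Ptges3, the coactivator genes Ncoa1 and Ncoa2, and the corepressor gene Ncor1. They were picked by gene symbol, with no measured value in the rule, but with earlier results of these data known. Counts of members called are therefore not independent of the data. All 8 were found among the 17310 genes in the files. RNA was sequenced from dissected hypothalamic tissue holding the paraventricular nucleus (PVH) of wild-type Wistar rats aged 12 weeks, male by the title of the study. There were 12 libraries, 2 in each of 6 groups. The groups were rats with a sham operation (sham), rats on 12 days of high Cort (high Cort), rats 7 days after adrenalectomy (ADX), adrenalectomised rats supplemented with Cort (supplemented ADX), and rats taken 1 h or 3 h after acute Cort (1 h acute and 3 h acute). Cort is read here as corticosterone, the chief glucocorticoid in rats. The labels give no dose, no length of the supplement and no vehicle group, and do not say whether the acutely treated rats had adrenals or whether a replicate was 1 rat or a pool. The p-values below therefore rest on the spread between these libraries alone, and that spread may be technical.

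Corticosterone enters cells freely and binds 2 nuclear receptors, the high-affinity mineralocorticoid receptor and the lower-affinity glucocorticoid receptor. Before it binds hormone, the receptor is folded and held by the chaperone HSP90 with co-chaperones, and once bound it moves to the nucleus, where coactivators and corepressors set the output at its target genes. In the PVH this signal restrains the neurons that start the pituitary and adrenal stress response. The enzyme 11-beta-hydroxysteroid dehydrogenase type 1 regenerates corticosterone from its inert 11-keto form inside the cell, so that tissue hormone can differ from that in blood.

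Libraries held 17674161 to 36249008 fragments, with the lowest total in 1 h acute replicate 2. All 7 PVH markers were detected in every library, among them the PVH transcription factor gene Sim1 at 35.4 to 55.1 CPM (fragment counts divided by library size). For the PVH markers and the summed levels of marker lists, library sizes were left unscaled. For all other CPM values they were scaled by TMM, which corrects for composition. Markers of the neighbouring thalamus were also detected: 11 of 12 listed genes were in the files, with none of these at 0, and their summed level was 1389 to 1894 CPM in sham, 1838 to 1848 in high Cort, 1031 to 1174 in ADX, 1101 to 1159 in supplemented ADX, 470.9 to 899.7 in 1 h acute and 828.0 to 863.8 in 3 h acute. Below, the thalamus score is the mean log2 CPM of these 11 markers, TMM-scaled, and its values stand beside the results that move with it. The deposited files came from 2 quantification runs of the authors. The first held sham, high Cort and ADX, the second supplemented ADX, 1 h acute and 3 h acute. In a comparison across the runs, run and group cannot be told apart.

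Of the 8 genes, the co-chaperones were the most abundant per transcript length and the mineralocorticoid receptor and the activating enzyme the least. On the FPKM scale, which divides fragments by transcript length and library size and is compared here only within a run, the median over the 6 libraries of the first run was 90.5 for Ptges3 and 73.1 for Fkbp4. Ncoa2 (39.1), Ncoa1 (38.3), Ncor1 (38.3) and Nr3c1 (35.5) followed. Their ranges in the first run were 38.3 to 40.9, 36 to 41.0, 36.2 to 40.6 and 32.0 to 38.1 FPKM. Each overlapped the others, except that Ncoa2 lay just above Nr3c1. Hsd11b1 (8.99) and Nr3c2 (8.94) came last, with overlapping ranges of 7.09 to 11.4 and 8.43 to 9.51 FPKM. The second run gave medians of 88.4 for Ptges3, 75.9 for Fkbp4, 40.6 for Ncoa2, 37.5 for Ncoa1, 36.1 for Ncor1, 32.7 for Nr3c1, 8.35 for Nr3c2 and 7.62 for Hsd11b1. Only the last pair of genes changed order between the runs. Among all tested genes of the first run, 92.6% had a lower median than Ptges3, 77.2% a lower median than Nr3c1 and 40.2% a lower median than Nr3c2.

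**Figure D1:**
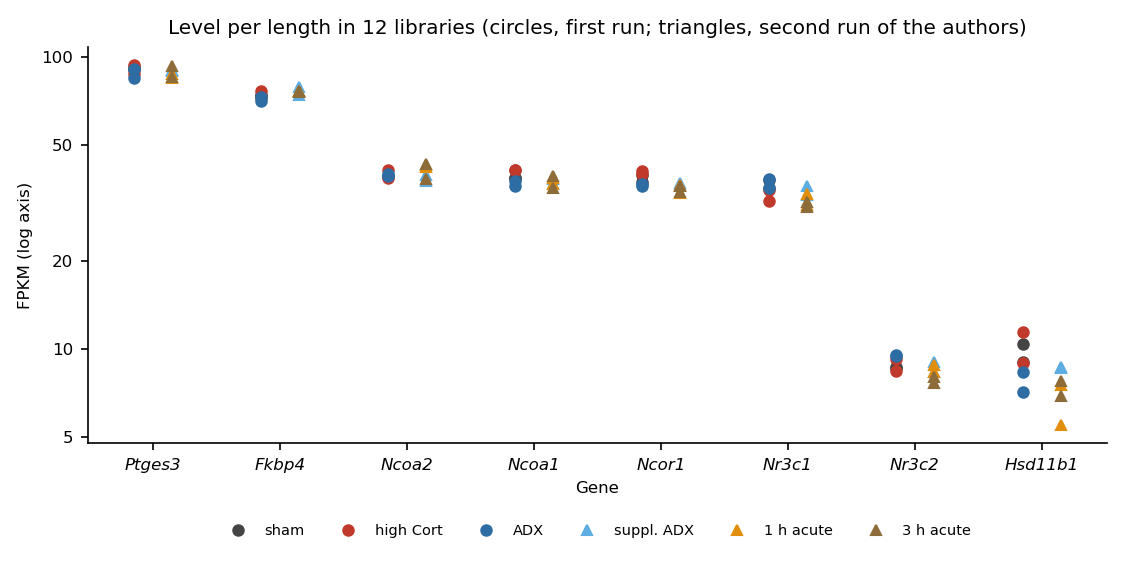
Level per transcript length (FPKM, log axis) of the 8 genes, 1 point per library, with circles for the first and triangles for the second quantification run and colours for the 6 groups. Ptges3 and Fkbp4 lie above 70 FPKM in every library, the coregulator genes and Nr3c1 between 30.5 and 42.9, and Nr3c2 and Hsd11b1 between 5.47 and 11.4.

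Tested over the 6 groups at once with edgeR's quasi-likelihood test, 4 of the 8 genes differed somewhere among the groups at an adjusted p under 0.05, where 12.9% of the 12856 genes tested did. They were Ncor1 (adjusted p = 0.0152), Nr3c1 (0.0339), Nr3c2 (0.0426) and Hsd11b1 (0.0459). Ncoa1 (0.0830), Ptges3 (0.453), Ncoa2 (0.508) and Fkbp4 (0.751) did not pass. Over 18 alternatives the call of Ncor1 was lost in 4, that of Nr3c1 in 7, that of Nr3c2 in 10 and that of Hsd11b1 in 13. All 8 genes passed the filter on low counts. The number of all genes called moved across the alternatives as well, as given at the end of the report. A lost call therefore need not be particular to a member. No member was called when the thalamus score was added to the model, without high Cort replicate 1 or without ADX replicate 1; 1 was without sham replicate 2, ADX replicate 2 or 3 h acute replicate 2, and 2 were without high Cort replicate 2 or 3 h acute replicate 1. In tissue of mixed cells, fewer cells of a type and less RNA per cell cannot be told apart in any of these values.

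Nr3c1 encodes the glucocorticoid receptor, a transcription factor that hormone switches on. Its level was 220.8 and 236.2 CPM in the sham libraries, 200.7 and 218.5 CPM in high Cort, and 220.1 and 236.4 CPM in ADX. In the second run supplemented ADX had 205.2 and 220.8 CPM, 1 h acute 207.5 and 189.7 CPM, and 3 h acute 194.4 and 186.0 CPM. Both 3 h acute libraries lay below every library of sham, high Cort, ADX and supplemented ADX, and both 1 h acute libraries lay below both sham libraries. From high to low the group means ran sham, ADX, supplemented ADX, high Cort, 1 h acute and 3 h acute, and each neighbouring pair in that order overlapped. The group means spanned 1.20-fold, or 0.26 on the log2 scale, against a within-group SD of 0.07, and 70.8% of genes with a mean of at least 5 CPM had a narrower span.

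The start of Nr3c1 is shown because, of the 2 receptor genes, it alone was called in a comparison of 2 groups. RefSeq also lists more than 1 start for it. Of the 8 genes, 5 have an entry in the RefSeq promoter table of build GRCr8, with 6 windows in all. The windows below are the 250 bases before each of the 2 listed Nr3c1 starts, on the minus strand at chr18:31614220-31614469 and chr18:31613440-31613689 of GRCr8, written 5′ to 3′. Capitals mark the GC box GGGCGG on either strand (CCGCCC on the other), the letters bound by Sp1-type factors.
Nr3c1 distal window: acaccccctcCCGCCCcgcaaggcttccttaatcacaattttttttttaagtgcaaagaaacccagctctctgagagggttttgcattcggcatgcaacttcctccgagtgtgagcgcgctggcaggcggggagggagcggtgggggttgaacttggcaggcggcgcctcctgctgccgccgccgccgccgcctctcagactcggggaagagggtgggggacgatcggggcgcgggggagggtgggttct
Nr3c1 proximal window: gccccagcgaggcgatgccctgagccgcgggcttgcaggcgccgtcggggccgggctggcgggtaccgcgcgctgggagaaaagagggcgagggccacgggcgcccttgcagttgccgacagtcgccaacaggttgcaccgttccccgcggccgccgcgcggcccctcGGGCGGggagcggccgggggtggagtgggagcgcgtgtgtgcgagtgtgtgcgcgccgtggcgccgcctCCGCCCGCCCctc
The distal window holds 1 such match and the proximal window 3, of which the last 2 share bases. All 6 windows of the 5 genes hold a GC box, as do 30.5% of the 33469 windows of the same length in the table. The GC content of the 6 windows was 59.6% to 82.8%, and the median over all windows was 51.2%. The full palindrome of the glucocorticoid response element, AGAACA and its reverse complement with 3 free bases between them, is in 0.012% of all windows and in none of the 6, which says only that these letters are not in these bases. The single hexamer AGAACA, on either strand, is in 17.5% of all windows and, of these genes, in the Ncoa1 window alone.

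Nr3c2 encodes the mineralocorticoid receptor, which in the brain binds corticosterone with higher affinity than the glucocorticoid receptor does. Its level was 48.4 and 49.0 CPM in sham, 47.8 and 52.2 CPM in high Cort, and 53.1 and 53.4 CPM in ADX. The supplemented ADX libraries had 46.2 and 49.9 CPM, the 1 h acute libraries 46.1 and 48.7 CPM, and the 3 h acute libraries 44.1 and 42.2 CPM. The ADX libraries were the 2 highest of the 12 and the 3 h acute libraries the 2 lowest. Between these ends the group means ran high Cort, sham, supplemented ADX and 1 h acute, with overlap between each of those neighbours. The span of the group means was 1.23-fold, 0.30 on the log2 scale, with a within-group SD of 0.06.

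Per transcript length, Nr3c1 exceeded Nr3c2 in every library. The ratio of their FPKM values was 3.52 to 4.36, with a median of 4.0 over the 12 libraries. In sham it was 4.12 and 4.36, in high Cort 3.79 and 3.8, then 3.75 and 4.0 in ADX, and 4.0 and 4.02 in supplemented ADX. The 1 h acute libraries had 3.52 and 4.07, and the 3 h acute libraries 3.98 and 3.99. The sham pair lay above all other libraries, and the lowest ratio was in 1 h acute replicate 2. As a ratio within a library it shows how the 2 transcripts stood to each other, not which of them differed.

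Hsd11b1 encodes the regenerating enzyme and had the widest relative span of the 8 genes. Its level was 12.0 and 13.9 CPM in sham, 15.2 and 12.0 CPM in high Cort, and 9.38 and 11 CPM in ADX. The supplemented ADX libraries had 11.3 and 11.1 CPM, the 1 h acute libraries 9.72 and 7.10 CPM, and the 3 h acute libraries 10.1 and 8.95 CPM. The 4 highest libraries were those of sham and high Cort, and the lowest was 1 h acute replicate 2. The group means spanned 1.62-fold, 0.70 on the log2 scale, more than in 97.0% of genes with a mean of at least 5 CPM. It was also the least precise of the 8: its within-group SD was 0.19 on the log2 scale, and it rested on 128 to 412 fragments per library, where the other 7 genes had at least 878. Sham and high Cort overlapped, as did ADX with 3 h acute and 3 h acute with 1 h acute.

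The co-chaperones were the steadiest. Fkbp4 encodes FKBP52, an immunophilin that favours hormone binding and movement of the receptor to the nucleus. It stood at 196.0 and 197.6 CPM in sham, 204.8 and 193.9 CPM in high Cort, 193.4 and 187.1 CPM in ADX, 193.3 and 204.9 CPM in supplemented ADX, 198.5 and 198.0 CPM in 1 h acute, and 198.2 and 199.9 CPM in 3 h acute. Its group means spanned 1.05-fold, 0.07 on the log2 scale, and only 3.53% of genes with a mean of at least 5 CPM had a narrower span. Ptges3 encodes p23, which stabilises the HSP90 complex that can bind hormone. It ranged from 120.3 to 136.7 CPM over the 12 libraries, and its group means spanned 0.12 on the log2 scale, highest in sham and lowest in 1 h acute. The SD of libraries within a group was 0.04 for Fkbp4 and 0.05 for Ptges3.

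The Fkbp4 start is shown because its product is an HSP90 partner that is itself a heat shock protein, and because it was the flattest of the 8. The window is the 250 bases before the start on the minus strand, chr4:163397919-163398168 of GRCr8. Capitals mark GC boxes and 1 match to the heat shock element core GAANNTTC, the letters bound by heat shock factors.
Fkbp4 window: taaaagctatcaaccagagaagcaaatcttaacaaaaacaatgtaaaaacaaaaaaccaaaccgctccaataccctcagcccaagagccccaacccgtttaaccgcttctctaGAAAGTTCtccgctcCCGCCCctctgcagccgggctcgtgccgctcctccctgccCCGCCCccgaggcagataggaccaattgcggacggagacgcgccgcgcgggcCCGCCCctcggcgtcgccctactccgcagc
That core reads the same on both strands, is in 7.23% of all windows and, of the 5 genes with a window, in Fkbp4 alone. It does not overlap the 3 GC boxes.

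Ncoa1 and Ncoa2 encode SRC-1 and SRC-2 (GRIP1), coactivators that dock on the hormone-bound receptor and recruit acetyltransferases. Ncoa1 stood at 198.0 and 198.6 CPM in sham, 212.3 and 213.2 CPM in high Cort, 193.2 and 185.6 CPM in ADX, 193.8 and 185.2 CPM in supplemented ADX, 185.9 and 194.2 CPM in 1 h acute, and 197.3 and 179.3 CPM in 3 h acute. Both high Cort libraries lay above all others, both sham libraries came next, and the other 4 groups overlapped. Ncoa2 had no such order: it ranged from 156.2 CPM in supplemented ADX replicate 2 to 178.4 CPM in 3 h acute replicate 1, and the other 3 h acute library was the second lowest at 158.6 CPM. The span of the group means on the log2 scale was 0.18 for Ncoa1 and 0.13 for Ncoa2, where the median over genes with a mean of at least 5 CPM was 0.19.

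Ncor1 encodes the corepressor NCoR1, which brings histone deacetylase complexes to nuclear receptors. Its level was 307.5 and 324.6 CPM in sham, 330.3 and 337.1 CPM in high Cort, and 297.8 and 302.2 CPM in ADX. The supplemented ADX libraries had 292.3 and 298.2 CPM, the 1 h acute libraries 295.1 and 276.5 CPM, and the 3 h acute libraries 292.3 and 277.8 CPM. High Cort lay above sham, sham lay above all others, and the remaining groups formed a lower band from 276.5 to 302.2 CPM. The group means spanned 0.23 on the log2 scale with a within-group SD of 0.04, and its p over the 6 groups was the smallest of the 8 genes. Per transcript length Ncor1 and Ncoa1 were close to equal: the FPKM ratio of Ncor1 to Ncoa1 was 0.89 to 1.02, with a median of 0.97.

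The start of Ncor1 is shown beside that of Nr3c1 because both genes were called lower in 1 h acute than in sham. Its 250 bases lie on the minus strand at chr10:47640351-47640600 of GRCr8, with GC boxes in capitals.
Ncor1 window: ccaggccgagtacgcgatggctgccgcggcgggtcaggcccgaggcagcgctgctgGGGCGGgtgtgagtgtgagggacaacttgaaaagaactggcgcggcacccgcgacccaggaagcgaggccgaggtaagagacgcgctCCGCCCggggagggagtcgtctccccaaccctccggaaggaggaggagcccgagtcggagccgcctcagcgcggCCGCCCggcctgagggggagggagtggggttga
The window holds 3 GC boxes, none of them overlapping, and neither the palindrome nor its hexamer.

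**Figure D2:**
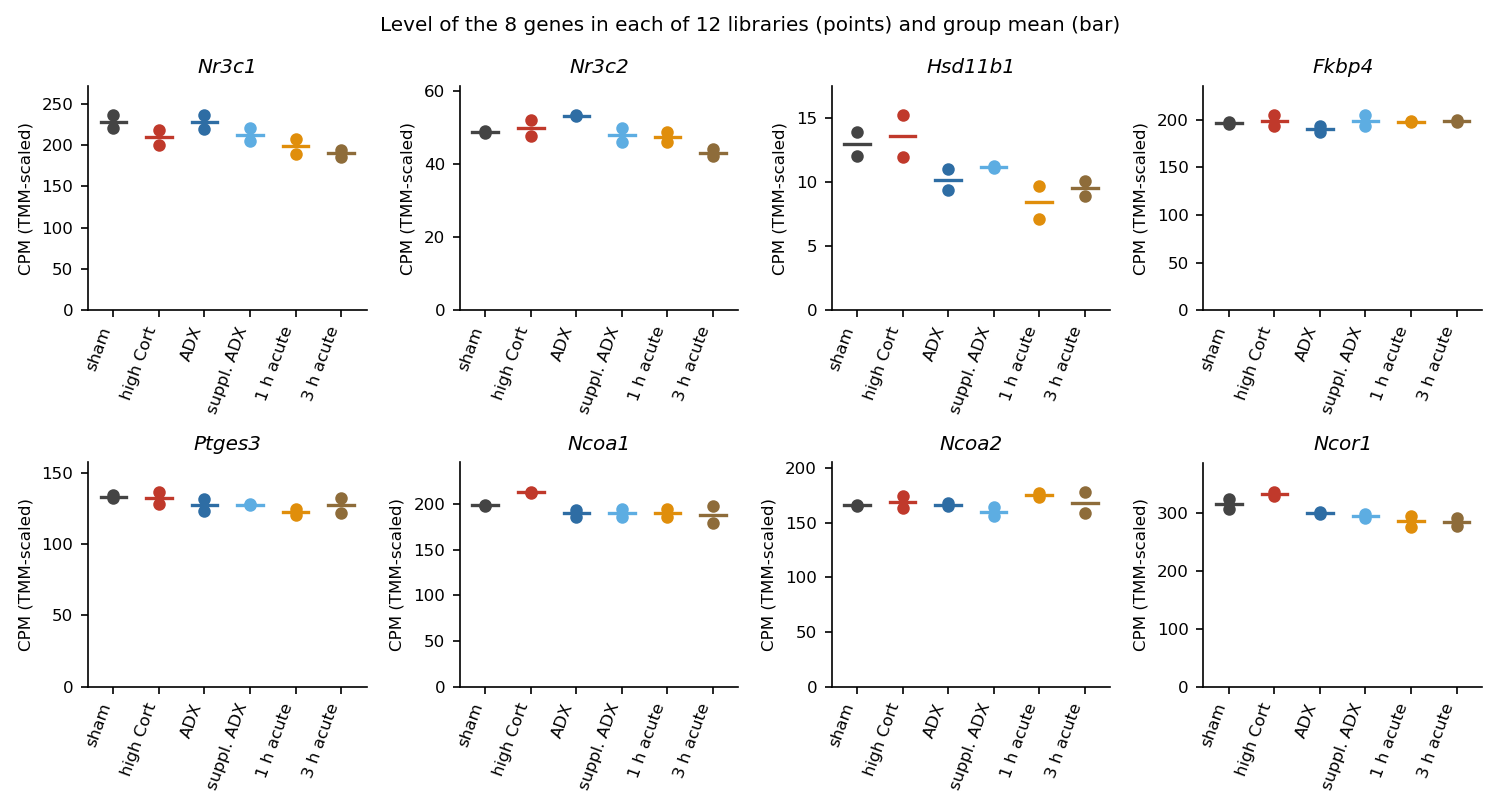
Level (CPM, TMM-scaled, axes from 0) of each of the 8 genes in the 12 libraries; points are libraries and bars are the means of the 2 libraries of a group. Fkbp4 is flat at 187.1 to 204.9 CPM, Hsd11b1 is at 12.0 to 15.2 CPM in sham and high Cort and at 11.3 CPM or less elsewhere, and the mean of Nr3c1 is lowest in 3 h acute.

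High Cort was set against sham to ask how prolonged excess hormone bore on the genes that receive it. No gene of the 8 passed, while genes that the receptors switch on were higher. By edgeR's quasi-likelihood test 0 of 8 members were called, where 0.871% of all genes were; none had an unadjusted p under 0.05, where 8.36% of all genes did, and DESeq2 also called 0. Nr3c1 was lower in both high Cort libraries than in both sham libraries, with a log2 fold change of -0.12 ± 0.06 (SE; 95% interval -0.25 to 0.01, adjusted p = 0.630). Ncoa1 was 0.10 ± 0.05 higher, also without overlap (adjusted p = 0.611). The 8 log2 fold changes lay between -0.12 and 0.10, and their 95% intervals between -0.25 and 0.37, the upper end being that of Hsd11b1. In all, 3 members did not overlap between the groups, where 37.8% of all genes did not.

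A list of 21 receptor targets was chosen with earlier results of these data known, so its counts, here and below, are not independent support. Of its 20 tested genes, 11 rose in high Cort over sham and none fell, and the median log2 fold change was 0.56 against 0.01 over all genes. Those named by smallest p were Klf9, Per1, Sgk1 and Gpd1. Klf9, a transcription factor gene, went from 78.8 and 81.6 CPM in sham to 108.6 and 108.2 CPM in high Cort (0.44 ± 0.04, adjusted p = 9.21e-05). Sgk1, whose product is a kinase named for its induction by serum and glucocorticoids, went from 32.3 and 30.0 CPM to 92.2 and 67.1 CPM (1.35 ± 0.12, adjusted p = 0.00111). The other 9 targets tested were positive as well but did not pass. Of 15 other chaperone genes, 1 rose, Fkbp5, which is also on the target list: it encodes FKBP51, which lowers hormone binding by the receptor and competes with the product of Fkbp4. Fkbp5 stood at 28.8 and 27.9 CPM in sham and 46.5 and 37.2 CPM in high Cort, without overlap (0.56 ± 0.09, adjusted p = 0.00532). The log2 fold change of Fkbp4 was 0.02 ± 0.04 with a 95% interval of -0.07 to 0.11, and the interval of Fkbp5 was 0.37 to 0.74; the difference between the 2 immunophilin genes was not tested. None of 10 other coactivators, 10 other corepressors, 8 genes of steroid metabolism and transport and 7 other steroid receptor genes were called. The count of 11 targets became 7 if sham replicate 2 was left out, 6 if high Cort replicate 1 was, and 5 in a fit of the 4 libraries alone. The call of Fkbp5 was lost without sham replicate 2 (log2 fold change 0.52) and without high Cort replicate 1 (0.39). The fit of the 4 libraries alone lost Fkbp5 (adjusted p = 0.117), Sgk1 (0.199) and Gpd1 (0.0674), and further called targets not named here. A fit of the 6 libraries of the first run, added after seeing the data, lost Fkbp5 (0.064), Sgk1 (0.0738) and Gpd1 (0.0554), with log2 fold changes of 0.55, 1.34 and 1.90. Further called targets, not named here, lost their calls in it as well. Of 12 marker lists, 8 had a summed level, not TMM-scaled, lower in high Cort than in sham without overlap and none higher. The gap was small for oligodendrocyte precursor markers, at 386.6 to 388.6 CPM against 391.3 to 396.8, and was not checked with TMM scaling. PVH markers stood at 409.0 to 455.7 CPM against 527.4 to 723.4 in sham, endothelial markers at 395.8 to 404.8 against 479.8 to 492.1, astrocyte markers at 4450 to 4473 against 4726 to 4774 and erythroid markers at 21.6 to 24.9 against 35.4 to 40.8. The PVH sum includes the neuropeptide genes Oxt, Avp, Trh and Crh, with medians of 294.8, 138.9, 79.6 and 17.1 CPM over the 12 libraries. Its transcription factor genes Pou3f2, Sim1 and Otp had 89.8, 49.1 and 34.5. The sum therefore does not measure the amount of PVH tissue alone. The part of the marker lists in these results was not tested.

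Loss of the adrenals, as ADX against sham, left the members' calls at 0 of 8 by edgeR's quasi-likelihood test, where 0.233% of all genes were called; DESeq2 called 0, and 2 members had an unadjusted p under 0.05, as 12.8% of all genes did. Those 2 were Nr3c2 and Hsd11b1, which stood on opposite sides. Nr3c2 was higher in both ADX libraries, by 0.13 ± 0.06 on the log2 scale (95% interval 0.00 to 0.25, adjusted p = 0.384). Hsd11b1 was lower in both, with a log2 fold change of -0.35 ± 0.14 (95% interval -0.66 to -0.04, adjusted p = 0.336). Nr3c1 overlapped between the groups, and the 95% interval of its log2 fold change was -0.13 to 0.13. The members' log2 fold changes were otherwise between -0.08 and 0.00. None of the 20 receptor targets was called, with 8 positive and 12 negative, and no gene of the 5 other lists was. All 11 thalamus markers were lower in ADX than in sham, with a median log2 fold change of -0.53 and none called. With the thalamus score as a covariate the log2 fold change of Hsd11b1 was -0.12 (adjusted p = 0.938) and that of Nr3c2 0.10 (0.865).

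The contrast of the 2 hormone extremes, high Cort against ADX, lies within 1 run and had more calls than either did against sham. It called 5.77% of all genes and 0 of the 8 members by edgeR's quasi-likelihood test; DESeq2 called 0, and 3 members had an unadjusted p under 0.05, as 20.9% of all genes did. They were Ncoa1 at 0.17 ± 0.05 on the log2 scale (95% interval 0.06 to 0.27, adjusted p = 0.0555), Ncor1 at 0.15 ± 0.04 (0.06 to 0.25, adjusted p = 0.0573) and Hsd11b1 at 0.41 ± 0.14 (0.10 to 0.72, adjusted p = 0.118), each higher in both high Cort libraries. A fit of the 4 libraries alone called Ncoa1 (0.15, adjusted p = 0.00999) and Ncor1 (0.14, adjusted p = 0.0101). The number of all genes called also moved across alternative fits, and these 2 calls were not set against it. With the thalamus score as a covariate none was called: Ncoa1 had 0.21 (adjusted p = 0.0919), Ncor1 0.09 (0.523) and Hsd11b1 0.12 (0.840). Nr3c1 was lower in both high Cort libraries, with a log2 fold change of -0.12 ± 0.06 (95% interval -0.25 to 0.01, adjusted p = 0.268). In all, 6 members did not overlap, where 53.8% of all genes did not. The 11 thalamus markers were all higher in high Cort, with a median of 0.55 and none called.

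Around the members, the targets again moved most in this contrast. Of the 20 tested, 17 rose and none fell, with a median log2 fold change of 0.65 against 0.01 over all genes. Klf9, Sgk1, Gpd1 and Per1 had the smallest p. Gpd1, the glycerol-3-phosphate dehydrogenase gene, stood at 28 and 21.4 CPM in ADX and at 124.2 and 103.2 CPM in high Cort (2.2 ± 0.16, adjusted p = 0.000256). Fkbp5 was the 1 of 15 chaperone genes called, from 27.9 and 26.1 CPM in ADX to 46.5 and 37.2 CPM in high Cort (0.63 ± 0.09, adjusted p = 0.000618). Among 10 coactivators 1 rose, Smarca4, which encodes the chromatin remodeller BRG1 (0.16 ± 0.04, adjusted p = 0.0412). Of 8 genes of steroid metabolism and transport 1 rose, Abcb1a, which encodes P-glycoprotein, an efflux pump of the blood-brain barrier that carries some corticosteroids. Abcb1a stood at 67.0 and 64.5 CPM in ADX and 77.3 and 80.6 CPM in high Cort (0.26 ± 0.05, adjusted p = 0.00686), and at 71.9 and 71.5 CPM in sham, between them. No other corepressor or steroid receptor gene was called. Without high Cort replicate 1 or without ADX replicate 1 the count of targets was 9, and without ADX replicate 2 it was 10. The call of Smarca4 was lost in 10 of 12 alternatives, and that of Abcb1a without high Cort replicate 2, without either ADX library and in the fit with the thalamus covariate (adjusted p = 0.0565 to 0.105).

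**Figure D3:**
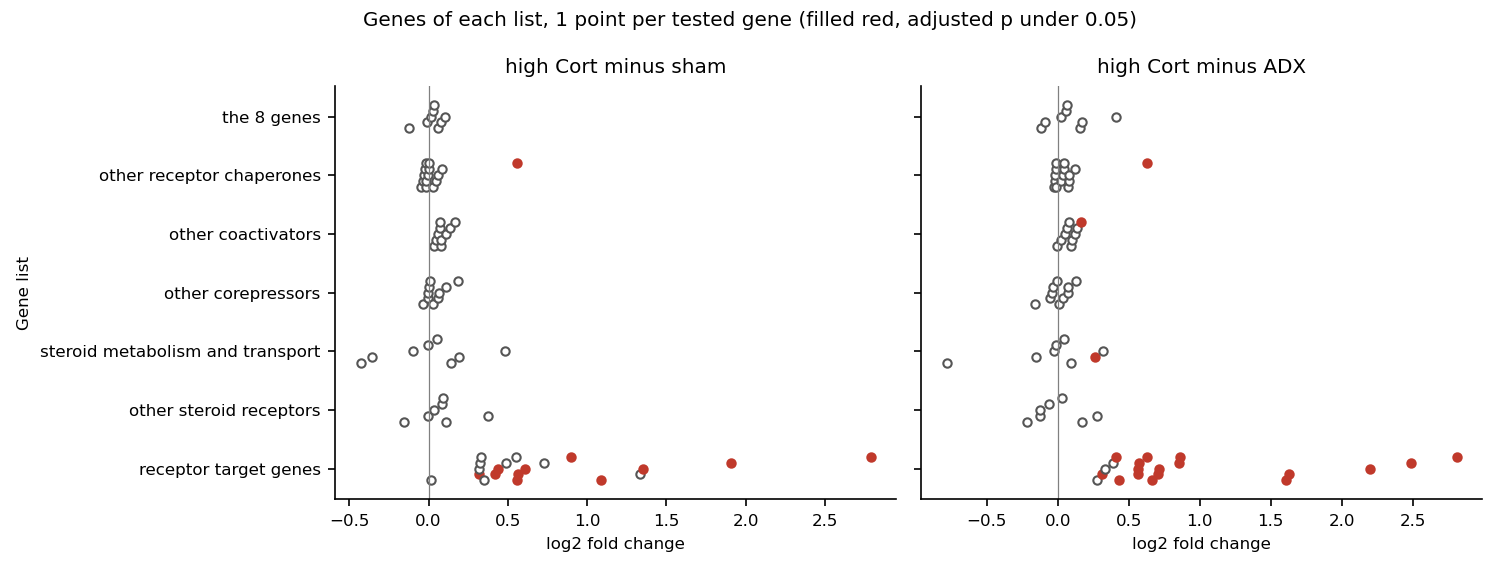
Log2 fold change of every tested gene of 7 lists in high Cort against sham (left) and against ADX (right), 1 circle per gene, filled red where the adjusted p is under 0.05. The 8 members lie within -0.12 to 0.41 and none is filled, while 11 (left) and 17 (right) of 20 receptor targets are filled. The lists were chosen with earlier results of these data known.

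Supplementing adrenalectomised rats with Cort was compared with ADX across the 2 runs. By edgeR's quasi-likelihood test 0 of 8 members and 0.0311% of all genes were called; DESeq2 called 0 members, and 1 had an unadjusted p under 0.05, as 4.05% of all genes did. That was Nr3c2, which was 0.15 ± 0.06 lower on the log2 scale in supplemented ADX without overlap (log2 fold change -0.15, 95% interval -0.27 to -0.03, adjusted p = 1.0). The ADX libraries also enter the comparison of ADX with sham. Nr3c2 stood at 53.1 and 53.4 CPM in them and at 46.2 to 49.9 CPM over the sham and supplemented ADX libraries. Hsd11b1 had a log2 fold change of 0.14 with a 95% interval of -0.17 to 0.45. None of the receptor targets was called, though 16 of 20 were positive with a median of 0.11, and no gene of the 5 other lists was called. The 11 thalamus markers were split, 7 positive and 4 negative, with a median of 0.02.

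For the acute groups, the comparison within their own run was with supplemented ADX. At 1 h, 0 of 8 members were called by edgeR's quasi-likelihood test, where 0.0467% of all genes were; DESeq2 called 0, and 2 members had an unadjusted p under 0.05, as 14.7% of all genes did. Hsd11b1 was lower in both 1 h acute libraries (-0.37 ± 0.15, 95% interval -0.70 to -0.05, adjusted p = 0.289), and Ncoa2 higher in both (0.13 ± 0.05, 95% interval 0.02 to 0.25, adjusted p = 0.279). At 3 h, 0 of 8 members and 0.00778% of all genes were called; DESeq2 called 0 members, and 2 had an unadjusted p under 0.05, as 12.5% of all genes did. These were the 2 receptors, both lower in 3 h acute without overlap: Nr3c1 with a log2 fold change of -0.16 ± 0.06 (95% interval -0.29 to -0.03, adjusted p = 0.305) and Nr3c2 with -0.15 ± 0.06 (-0.28 to -0.02, adjusted p = 0.330). Hsd11b1 was lower too, at -0.24 with an interval of -0.57 to 0.09. All 11 thalamus markers were lower than in supplemented ADX at both times, with medians of -0.64 at 1 h and -0.41 at 3 h and none called. With the thalamus score as a covariate Hsd11b1 had a log2 fold change of -0.06 at 1 h and -0.001 at 3 h, and at 3 h Nr3c1 had -0.09 and Nr3c2 -0.18 (adjusted p = 0.528 to 0.999).

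Between the 2 acute times, 3 h against 1 h, 0 of 8 members were called by edgeR's quasi-likelihood test, where 0.0233% of all genes were; DESeq2 called 0, and no member had an unadjusted p under 0.05, where 10.6% of all genes did. The largest members' values were a log2 fold change of -0.13 for Nr3c2 (95% interval -0.26 to 0.00, no overlap) and 0.14 for Hsd11b1 (-0.22 to 0.49, overlapping). Among the receptor targets 1 was called here and 1 at 1 h against supplemented ADX, both times Per1, a clock gene that the glucocorticoid receptor induces directly. Per1 stood at 48.7 and 50.5 CPM in supplemented ADX, 82.5 and 87.4 CPM in 1 h acute, and 49.8 and 51.9 CPM in 3 h acute. It was higher at 1 h than in supplemented ADX (0.77 ± 0.08, adjusted p = 0.00174) and lower at 3 h than at 1 h (-0.74 ± 0.08, adjusted p = 0.00309). The first call was lost without supplemented ADX replicate 2 (adjusted p = 0.0629) and the second without either 3 h acute library (0.0508 and 0.0771). At 3 h against supplemented ADX none of the 20 targets was called, with 13 positive.

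Against sham, across the runs, the acute groups had members called, all lower. At 1 h these were 3 of 8 by edgeR's quasi-likelihood test, Hsd11b1, Nr3c1 and Ncor1, where 12.8% of all genes were called and 7.2% were called lower. Hsd11b1 fell 1.5-fold, from 12.0 and 13.9 to 9.72 and 7.10 CPM (log2 fold change -0.59 ± 0.15, 95% interval -0.92 to -0.26, adjusted p = 0.0262), the largest of any member in any comparison. Nr3c1 fell from 220.8 and 236.2 to 207.5 and 189.7 CPM (-0.20 ± 0.06, 95% interval -0.33 to -0.07, adjusted p = 0.0439), and Ncor1 from 307.5 and 324.6 to 295.1 and 276.5 CPM (-0.14 ± 0.05, -0.24 to -0.05, adjusted p = 0.0481). The 2 groups did not overlap for these 3 genes. Ptges3 was lower without passing (-0.12 ± 0.05, adjusted p = 0.136), Nr3c2 overlapped, and the remaining log2 fold changes were between -0.06 and 0.08. In all, 7 members did not overlap, where 56.5% of all genes did not. Without sham replicate 2 or without 1 h acute replicate 2, and in a fit of the 4 libraries alone, none of the 3 was called. A replicate block, RLE size factors, a stricter filter and dropping the filter each left 1, Hsd11b1.

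At 3 h against sham 1 of 8 members was called, Nr3c1, where 7.98% of all genes were called and 4.57% were called lower. Nr3c1 fell 1.20-fold, from 220.8 and 236.2 to 194.4 and 186.0 CPM (log2 fold change -0.26 ± 0.06, 95% interval -0.40 to -0.13, adjusted p = 0.0208). Hsd11b1 (-0.45 ± 0.15, adjusted p = 0.0894), Nr3c2 (-0.18 ± 0.06, adjusted p = 0.0906) and Ncor1 (-0.15 ± 0.05, adjusted p = 0.0568) were lower in both 3 h acute libraries than in both sham libraries but did not pass. Fkbp4 stayed within 0.02 of sham on the log2 scale at both times, with 95% intervals inside -0.08 to 0.11. In all, 7 members did not overlap, where 53.1% of all genes did not. The call of Nr3c1 was lost without sham replicate 2 (adjusted p = 0.185), without 3 h acute replicate 1 (0.0546) and without 3 h acute replicate 2 (0.178), and without sham replicate 1 Ncor1 was called as well (0.0472). Both acute groups were set against the same sham libraries, so these 2 comparisons are not independent.

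**Figure D4:**
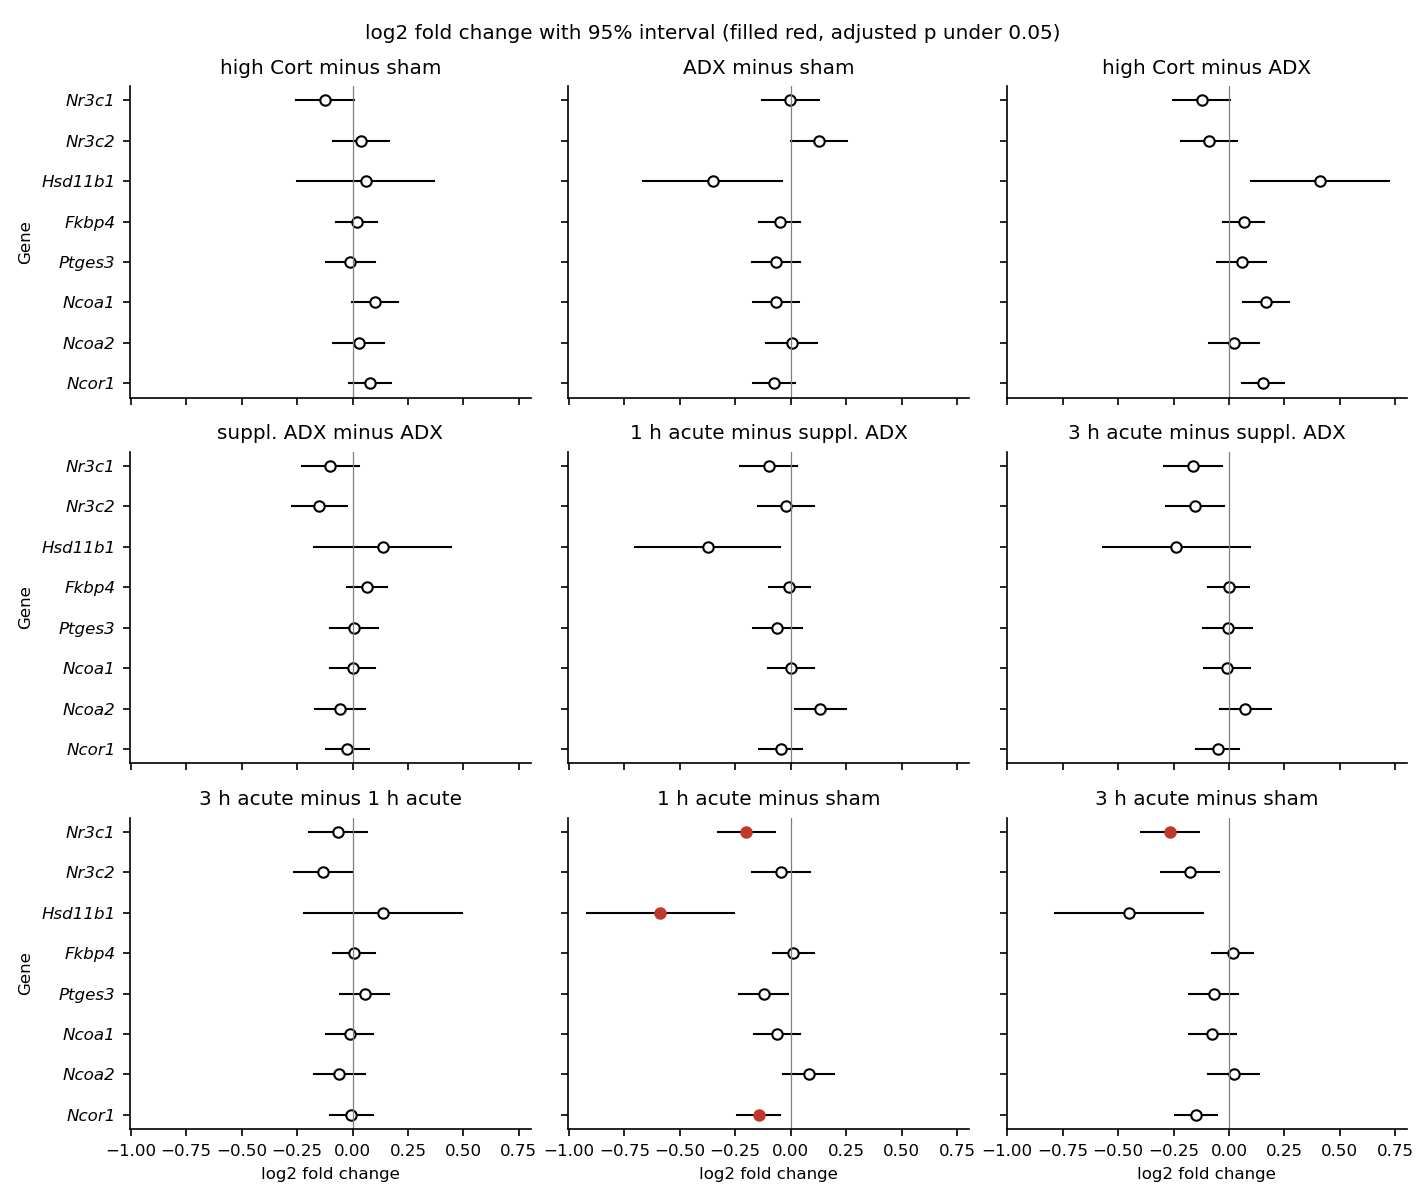
Log2 fold change (point) with its 95% interval (line) of the 8 genes in 9 comparisons, filled red where the adjusted p is under 0.05. The 4 filled points all lie in the comparisons of the acute groups with sham, and the intervals of Hsd11b1 are the widest in every panel.

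Marker lists differed between the same groups. Against sham, 7 of 12 lists had summed levels, not TMM-scaled, without overlap at 1 h, 5 of them lower, and 8 at 3 h, 3 of them lower. Neuron markers stood at 4211 to 4405 CPM in sham, 3407 to 3753 in 1 h acute and 3661 to 3846 in 3 h acute, and erythroid markers at 35.4 to 40.8, 28.1 to 33.7 and 54.6 to 68.2. The part of lists other than the thalamus markers was not tested. The thalamus score was 5.80 and 6.44 in sham, 6.29 and 6.25 in high Cort, 5.57 and 5.73 in ADX, and 5.67 and 5.64 in supplemented ADX. The 1 h acute libraries had 5.31 and 4.48 and the 3 h acute libraries 5.08 and 5.22. Both acute groups lay below all other groups. Of the 11 markers all were lower than in sham at 1 h, 7 of them called with a median log2 fold change of -1.08, and all were lower at 3 h, 1 called with a median of -0.92. The 4 libraries with the highest score were also the 4 highest for Hsd11b1 and for Ncor1, and 1 h acute replicate 2 was the lowest for the score, Hsd11b1 and Ncor1. Nr3c1 did not share that order, since high Cort replicate 1 had a high score and only 200.7 CPM. With the score as a covariate none of the 4 calls remained: the log2 fold changes at 1 h were -0.05 for Hsd11b1, -0.02 for Nr3c1 and -0.02 for Ncor1 (each adjusted p = 0.995), and that of Nr3c1 at 3 h was -0.12 (adjusted p = 0.823). All 8 members had an adjusted p of 0.995 at 1 h in this fit, as had Dnajb1 and Hdac1, called without the score. A call lost in it is therefore not particular to these members. In the same fit Per1 kept its call at 1 h against sham (1.00, adjusted p = 0.0390), and 11 receptor targets were called higher in high Cort than in sham. The acute and sham scores did not overlap, so score and group can hardly be told apart between them. At 1 h against sham the SE rose with the score from 0.061 to 0.097 for Nr3c1 and from 0.153 to 0.22 for Hsd11b1. Sham and high Cort had closer mean scores, 6.12 and 6.27, so the 11 targets do not bear on the lost calls of the members.

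**Figure D5:**
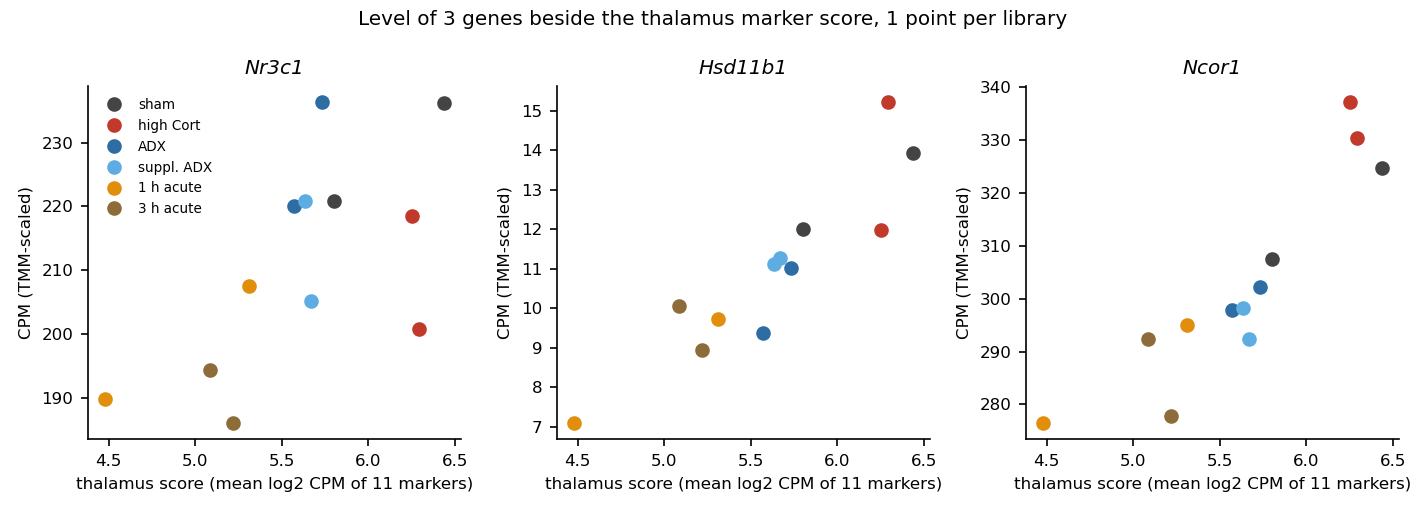
Level (CPM, axes not from 0) of Nr3c1, Hsd11b1 and Ncor1 against the thalamus score (mean log2 CPM of 11 markers), 1 point per library, coloured by group. For Hsd11b1 and Ncor1 the sham and high Cort libraries lie at the upper right and 1 h acute replicate 2 at the lower left; for Nr3c1 high Cort replicate 1 lies low at a score of 6.29.

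Other coregulator genes of the pathway were also called against sham in the acute groups. The list counts here and in the next paragraph stand beside 12.8% of all genes called at 1 h and 7.98% at 3 h. Among the corepressors, Hdac1, a histone deacetylase gene, rose at 1 h (0.24 ± 0.06, adjusted p = 0.0163), the opposite direction to Ncor1, and Cops2 fell (-0.17 ± 0.05, adjusted p = 0.0287). Hdac1 also rose at 3 h (0.20 ± 0.06, adjusted p = 0.0487). Of 10 other coactivators 3 rose at 1 h, Crebbp (0.22), Ppargc1b (0.30) and Med14 (0.13), and none was called at 3 h.

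Among the remaining lists, the chaperone gene Dnajb1, an HSP40 family member, rose at 1 h from 49.4 and 47.0 CPM in sham to 60.0 and 67.5 CPM (0.40 ± 0.09, adjusted p = 0.0177), 1 of 15 called. At 3 h Stub1, which encodes the ubiquitin ligase CHIP, rose (0.17 ± 0.04, adjusted p = 0.0338) and Hspa4 fell (-0.16 ± 0.04, adjusted p = 0.0456). Of 7 other steroid receptor genes 1 rose at 1 h, the estrogen receptor gene Esr1, from 5.02 and 5.64 to 8.18 and 8.37 CPM (0.63 ± 0.14, adjusted p = 0.0125), and none at 3 h. None of the 8 genes of steroid metabolism and transport was called at either time. Of the 20 receptor targets, Per1 (0.93 ± 0.08, adjusted p = 0.000128) and Ddit4 (0.42 ± 0.12, adjusted p = 0.0434) rose at 1 h and Zbtb16 (0.71 ± 0.18, adjusted p = 0.0441) at 3 h. Without sham replicate 2 the calls of all these list genes were lost but that of Per1 at 1 h, and likewise at 1 h without 1 h acute replicate 2. With the thalamus score as a covariate Per1 was the 1 gene of those called in these lists to be called again at 1 h, and none was at 3 h.

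The genes whose levels followed those of 3 members most closely were found by the root mean square distance between centred log2 CPM over the 12 libraries, among 10172 genes with a mean of at least 5 CPM. For Nr3c1 they were Eps15, Mpp6 and Pdk3, at distances of 0.040, 0.049 and 0.051, where the median gene was at 0.139. For Nr3c2 they were Bmpr2, Pank3 and Bmi1 (0.048, 0.049 and 0.050; median 0.131). For Hsd11b1 they were Rgs7, Otub2 and Plcg2, at the larger distances of 0.079, 0.081 and 0.082 (median 0.287). The 12 points of each share libraries and their tissue make-up, so the distances only describe likeness.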

How the data were processed

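RNA of the dissected PVH region was made into libraries by an Illumina TruSeq RNA protocol, per the labels' protocols. The submitters' processing notes name CASAVA 1.8.2, TopHat2 2.1.1, Cufflinks 2.2.1 and build rn6; the annotation is not given in the sources used here. The authors deposited expected counts, as unscaled fragments of each gene; 0.751% of values, none of them in the 8 genes, were not whole and were rounded. The deposited FPKM values were scaled by the authors within 2 runs and serve here only for levels within a run. Condition codes repeat between files, and the deposited scale factors matched factors recomputed within the sets named in the report to 0.0575%; the 3 other sets the codes allow were off by 5.12% to 19.9%.

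Counts were fitted with edgeR 4.0.16 (R 4.3.3): filterByExpr (minimum count 10, minimum total 15, leaving 12856 genes), TMM scaling and a robust quasi-likelihood fit of all 12 libraries, 1 coefficient for each group. It had 6 residual degrees of freedom. Each of 9 comparisons, and the 6 groups together, was tested 2-sided with Benjamini-Hochberg adjustment over all genes; genes with an adjusted p under 0.05 were called. Permuting 2 against 2 libraries cannot give a p under 0.333. The script was tested on simulated counts with known changes.

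The 8 genes and the gene lists were chosen with earlier results of these data known, and the lists come from general knowledge. Named list genes are the called ones, up to 4 of smallest p per list and comparison; the likeness of genes was taken on log2 CPM with a prior count of 2. Member changes under 0.1 on the log2 scale are given by range. Alternatives were RLE size factors, dropping the filter, a stricter one (4 or more libraries with a CPM of 1 or more), DESeq2 1.42.0, a fit of the compared libraries alone, a replicate block, the thalamus score as a covariate and leaving out each library. The values of 1 gene on the corepressor list are not reported here.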

Additional observations from a re-analysis of the deposited data

How the results depend on the processing

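In the comparison of 1 h acute with sham, 3 of the 8 genes were called; 1 was with RLE size factors, with no filter on low counts, with the stricter filter and with the replicate block, 2 with DESeq2, and 0 in a fit of the compared libraries alone or with the thalamus score as a covariate. Leaving out 1 library gave 0 to 3. For 3 h acute against sham the 1 call became 0 with the thalamus score, and leaving out 1 library gave 0 to 2. For high Cort against ADX the 0 calls became 2 in a fit of the compared libraries alone, and 2 in a fit of the 6 libraries of the authors' run, which was added after seeing the data. The number of all genes called moved too, as given below, and these 2 calls were not set against it. Over the 6 groups the 4 calls became 2 with the replicate block and 0 with the thalamus score, and leaving out 1 library gave 0 to 4. The other 6 comparisons called 0 of the 8 genes in every alternative run.

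Among member changes of at least 0.1 on the log2 scale, that of Hsd11b1 changed sign in 2 places: it was 0.011 for 3 h acute against sham with the thalamus score, and -0.031 for 3 h against 1 h acute without 1 h acute replicate 2 (leaving out 1 library gave -0.031 to 0.420). For high Cort against sham, a smaller change, it went from 0.06 to -0.007 with the score. The cause was not tested beyond the fewer libraries or the added covariate of those fits. Over all alternatives the log2 fold change at 1 h against sham ran from -0.87 to -0.05 for Hsd11b1, -0.27 to -0.02 for Nr3c1 and -0.19 to -0.02 for Ncor1, and that of Nr3c1 at 3 h from -0.31 to -0.12. The number of all genes called moved by more than 1.5 times in each comparison, between 3 and 2163 at 1 h against sham (1641 reported), 4 and 1038 at 3 h against sham (1026), 177 and 1650 for high Cort against ADX (742), 24 and 159 for high Cort against sham (112), and 4 and 168 for ADX against sham (30). It lay between 0 and 38 for supplemented ADX against ADX (4), 0 and 662 for 1 h acute (6) and 0 and 146 for 3 h acute (1) against supplemented ADX, and 0 and 35 for 3 h against 1 h (3). Over the 6 groups it lay between 203 and 2283 (1663).

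Nothing in the labels ties a replicate number to an animal or day, so the numbers do not pair the libraries; the correlation of same-numbered deviations over 10180 genes ran from -0.38 to 0.148 in 15 pairs of groups. The replicate block left 1 call at 1 h against sham and 2 over the 6 groups and did not change the members' count elsewhere. Depth limits Hsd11b1 most, at 128 fragments in its lowest library.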
